A study of Caenorhabditis elegans with 2 samples.

Results

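Small nucleolar RNA (snoRNA) genes and the protein-coding genes that hold them were examined for binding of the zinc finger protein LSL-1 in Caenorhabditis elegans. The members are all 346 genes of biotype snoRNA on the nuclear chromosomes in the Ensembl annotation of WBcel235, out of 46890 nuclear genes. Of these, 216 lie whole inside the body of a protein-coding gene (183 on the strand of that gene and 33 on the other strand), and 130 lie outside. The 216 inside genes have 188 host genes between them. A gene was called bound if its window, reaching 1000 bp upstream and 200 bp downstream of its annotated 5′ end, held the summit of a deposited peak, the summit being the base of strongest signal within the peak.

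The data are chromatin immunoprecipitation followed by sequencing (ChIP-seq) from 2 biological replicates of 1 group. The group is whole young adult worms of strain OP720, males and females pooled, 69 h old, bleached and synchronised by starving the L1 larvae. OP720 has the unc-119 allele tm4063 and the transgene wgIs720, in which lsl-1 is fused to TY1, EGFP and 3xFLAG and which also holds unc-119(+). LSL-1 thus carries its tag at the C-terminus, the transgene adds copies of lsl-1 and unc-119 to the genome, and sonicated chromatin was recovered with an antibody against GFP. The submitters deposited regions called on each replicate (30000 and 26018) and on both pooled (30000), and 3897 peaks that passed an irreproducible discovery rate (IDR) threshold. The pooled regions are labelled as peaks and background that were the input for IDR. Peaks are named here by their rank in the IDR list by the authors' signal value, with 1 the strongest, and positions are relative to a gene's 5′ end, with upstream negative. Whole animals hold many cell types, so no value can be assigned to a tissue. Read counts are not part of the lists. The depth is therefore unknown, and the 95% intervals (exact Clopper-Pearson) reflect only how many genes or peaks were counted. Genes next to each other can share a peak and are not independent.

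snoRNAs are short nucleolar RNAs that guide the modification of ribosomal RNA. Box C/D snoRNAs direct methylation of the ribose, and box H/ACA snoRNAs direct the conversion of uridine to pseudouridine, each within a particle that holds the modifying enzyme. Many snoRNAs are cut from introns of a host transcript, and the hosts are often genes for ribosomal proteins and other parts of the translation machinery. Other snoRNA genes are transcribed from promoters of their own. In nematodes some of these promoters resemble those of small nuclear RNA (snRNA) genes, and others hold A and B boxes of the kind that RNA polymerase III uses at transfer RNA (tRNA) genes.

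The stretches that matter most here lie just upstream of the snoRNA genes. The sequences below run 5′ to 3′ on the strand of the snoRNA gene from 100 bases upstream to 20 bases past its 5′ end, taken from the RefSeq assembly of WBcel235 (ce11). The first set shows a pair of short words that recurred upstream of bound snoRNA genes, GNAACC and TGTCNG, in capitals. These are the 5 highest-ranked bound genes with the pair once 1 chromosome, named with the counts of these words, is left out.
C05H8.3 (chrIII:5653949-5654068, minus strand): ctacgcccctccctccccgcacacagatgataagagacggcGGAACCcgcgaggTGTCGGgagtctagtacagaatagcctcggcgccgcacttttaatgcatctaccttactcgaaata
T26A8.6 (chrIV:8428720-8428839, minus strand): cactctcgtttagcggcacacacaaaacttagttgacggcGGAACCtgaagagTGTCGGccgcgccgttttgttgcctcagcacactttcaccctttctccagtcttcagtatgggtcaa
Y53F4B.47 (chrII:15025874-15025993, minus strand): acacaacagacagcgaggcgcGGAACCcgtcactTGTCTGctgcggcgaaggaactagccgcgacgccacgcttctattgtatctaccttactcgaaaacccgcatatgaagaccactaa
C16D9.11 (chrV:8228950-8229069, minus strand): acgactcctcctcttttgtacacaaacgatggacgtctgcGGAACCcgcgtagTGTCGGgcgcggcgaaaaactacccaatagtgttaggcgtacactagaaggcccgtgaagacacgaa
ZK994.7 (chrV:8500479-8500598, plus strand): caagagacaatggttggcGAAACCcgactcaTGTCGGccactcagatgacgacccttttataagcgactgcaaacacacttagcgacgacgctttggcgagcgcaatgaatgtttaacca

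In all 5 stretches the words start 13 bases apart. C05H8.3 lies on the strand opposite to its host ckk-1, which encodes a calmodulin-dependent protein kinase kinase. T26A8.6 and Y53F4B.47 lie outside coding genes. C16D9.11 and ZK994.7 lie on the strand of their hosts, rol-3, a receptor tyrosine kinase gene, and pxn-1, which encodes a peroxidasin.

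The next set, chosen in the same way, shows GTTCNANNC, the core of the B box of RNA polymerase III promoters, in capitals. Capitals further upstream mark TGGNNNA, letters of the A box, where it starts 20 to 70 bases before the last B box word.
W03C9.9 (chrII:11960798-11960917, plus strand): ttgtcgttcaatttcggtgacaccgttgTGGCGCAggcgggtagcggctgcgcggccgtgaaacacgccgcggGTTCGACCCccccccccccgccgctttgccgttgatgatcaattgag
Y75B12B.12 (chrV:15191074-15191193, minus strand): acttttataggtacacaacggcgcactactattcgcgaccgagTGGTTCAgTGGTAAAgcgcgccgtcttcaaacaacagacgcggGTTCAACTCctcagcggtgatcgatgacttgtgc
C05D2.15 (chrIII:5602160-5602279, minus strand): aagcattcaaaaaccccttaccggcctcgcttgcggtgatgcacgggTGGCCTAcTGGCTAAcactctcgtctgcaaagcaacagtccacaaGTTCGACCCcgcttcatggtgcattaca
Y43F8C.22 (chrV:19643168-19643287, minus strand): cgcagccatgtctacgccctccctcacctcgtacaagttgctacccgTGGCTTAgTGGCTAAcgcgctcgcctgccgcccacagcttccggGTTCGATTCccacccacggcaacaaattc
C51F7.3 (chrV:12303608-12303727, plus strand): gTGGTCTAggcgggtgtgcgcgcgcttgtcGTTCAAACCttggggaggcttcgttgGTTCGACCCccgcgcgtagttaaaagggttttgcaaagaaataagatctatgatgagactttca

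In each of the 5 genes both words start in front of the annotated 5′ end. The last one, C51F7.3, also carries a second copy of the B box word. For contrast, the stretches upstream of the snoRNA genes with the highest-ranked peak are shown next, marked by the same words. Both genes lie in introns of the ribosomal protein gene rpl-15, and the summit is in the promoter windows of that gene and of K11H12.8.
K11H12.12 (chrIV:654011-654130, minus strand): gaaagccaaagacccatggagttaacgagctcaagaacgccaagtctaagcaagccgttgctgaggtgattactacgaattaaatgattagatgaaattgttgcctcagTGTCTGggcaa
K11H12.13 (chrIV:654342-654461, minus strand): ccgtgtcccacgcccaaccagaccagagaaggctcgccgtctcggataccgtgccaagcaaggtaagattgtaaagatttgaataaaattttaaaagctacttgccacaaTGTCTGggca

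Neither stretch holds the pair or the B box word, and each has a TGTCNG word alone. The genes themselves are shown for a pair of members whose transcripts carry box C (TGATGA) near the start and box D (CTGA) near the end, in capitals.
W03C9.9 (chrII:11960898-11960959, plus strand): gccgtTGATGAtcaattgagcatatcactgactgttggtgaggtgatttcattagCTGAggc
Y55F3BR.9 (chrIV:867056-867133, minus strand): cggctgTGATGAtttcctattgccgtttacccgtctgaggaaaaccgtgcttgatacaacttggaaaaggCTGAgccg

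LSL-1 summits lay in the windows of 132 of the 346 snoRNA genes (38.2%, 33.0 to 43.5). The same window held a summit in 14.2% of protein-coding genes (2836 of 19973), in 4.29% of the other nuclear genes that encode no protein (1140 of 26571) and in 8.76% of all nuclear genes. Small RNA genes of other kinds had shares nearer to that of the snoRNA genes, at 42% of 612 tRNA genes and 45.7% of 129 snRNA genes. Both kinds are also counted among the 26571 genes, which are a mix of many kinds. A summit within 100 bp of the 5′ end was present at 84 snoRNA genes (24.3%, 19.8 to 29.2), against 2.57% of protein-coding genes, 2.13% of the other noncoding genes, 35% of tRNA genes and 38% of snRNA genes.

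Over all gene records together, the bound share differed little with the place of the snoRNA gene. Of the inside genes 86 of 216 were bound (39.8%, 33.2 to 46.7), and of the outside genes 46 of 130 (35.4%, 27.2 to 44.2). The share was 71 of 183 on the strand of the host and 15 of 33 on the other strand (45.5%, 28.1 to 63.6). These intervals overlap. The matching shares of other noncoding genes were 4.64% inside coding genes and 4.08% outside.

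**Figure D1:**
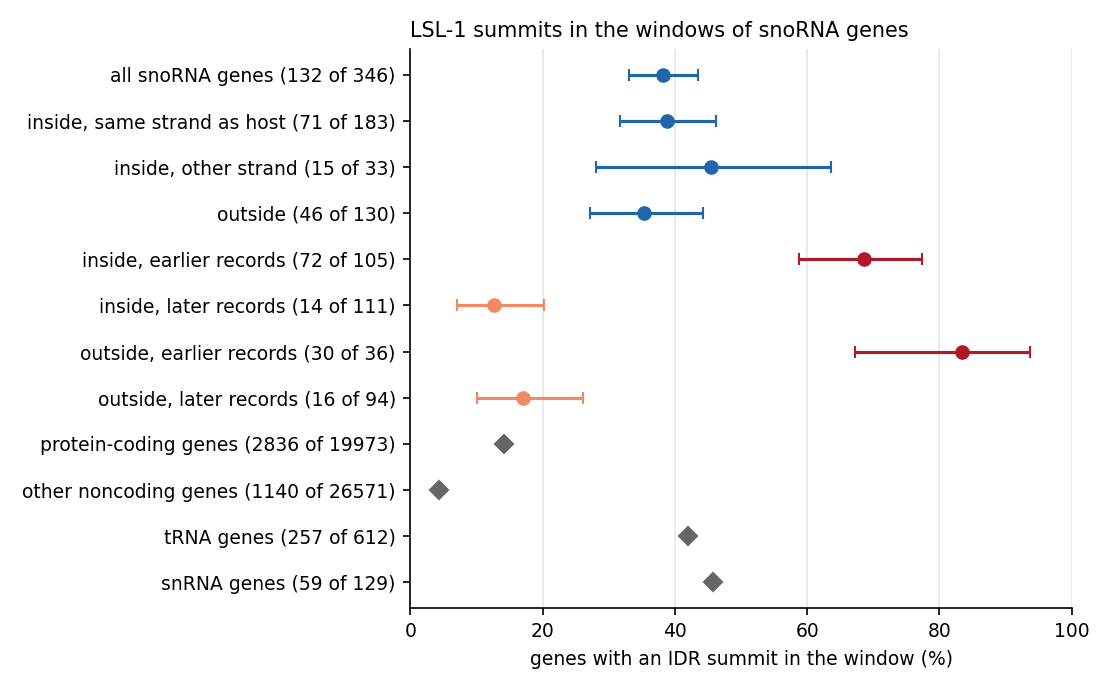
Percent of genes with an IDR summit in the window of 1000 bp upstream and 200 bp downstream, for snoRNA genes by place and by age of the gene record (circles, bars are exact 95% intervals) and for other genes (grey diamonds). Shares by place run from 35.4% to 45.5%, while earlier and later gene records stand apart.

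The 132 bound snoRNA genes fell into 3 classes by what else the strongest summit in the window lay near. At 76 of them (57.6%, 48.7 to 66.1) the summit was in no protein-coding promoter window. At 33 (25%, 17.9 to 33.3) it was in the window of the snoRNA's own host, and at 23 (17.4%, 11.4 to 24.99) in the window of another coding gene but not of a host. Of the 33 host promoter summits 23 (69.7%, 51.3 to 84.4) also lay in the window of another coding gene, so position alone does not assign them to the host. A strongest summit outside every coding window was thus found at 22.0% of all snoRNA genes, against 2.68% of other noncoding genes, and at 22.7% of the inside ones, against 3.74% of other noncoding genes inside coding genes. The 132 genes use 124 distinct peaks, and 8 of these peaks serve 2 snoRNA genes each.

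The position of the summit differed between the classes. Summits in no coding window lay at a median of -25.5 bp from the snoRNA 5′ end (quartiles -51.3 and -9.5). Summits in the window of another coding gene lay at a median of -55 bp (-70 and -26.5). Summits at host promoters were spread far upstream, at a median of -603 bp (-766 and -478). The snoRNA 5′ end and the summit lay close together in the first 2 classes and far apart in the third. The contrast with the third class arises in part by construction. Its summits must lie in the host's window, and its snoRNA genes start 61 to 1027 bp into the host. A summit was within 100 bp of the 5′ end at 64 of 76, 18 of 23 and 2 of 33 genes in these classes. For comparison, the summits at bound protein-coding genes lay at a median of -250 bp (-449 and -139) and those at bound snRNA genes at a median of -25 bp (-52 and 32.5).

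**Figure D2:**
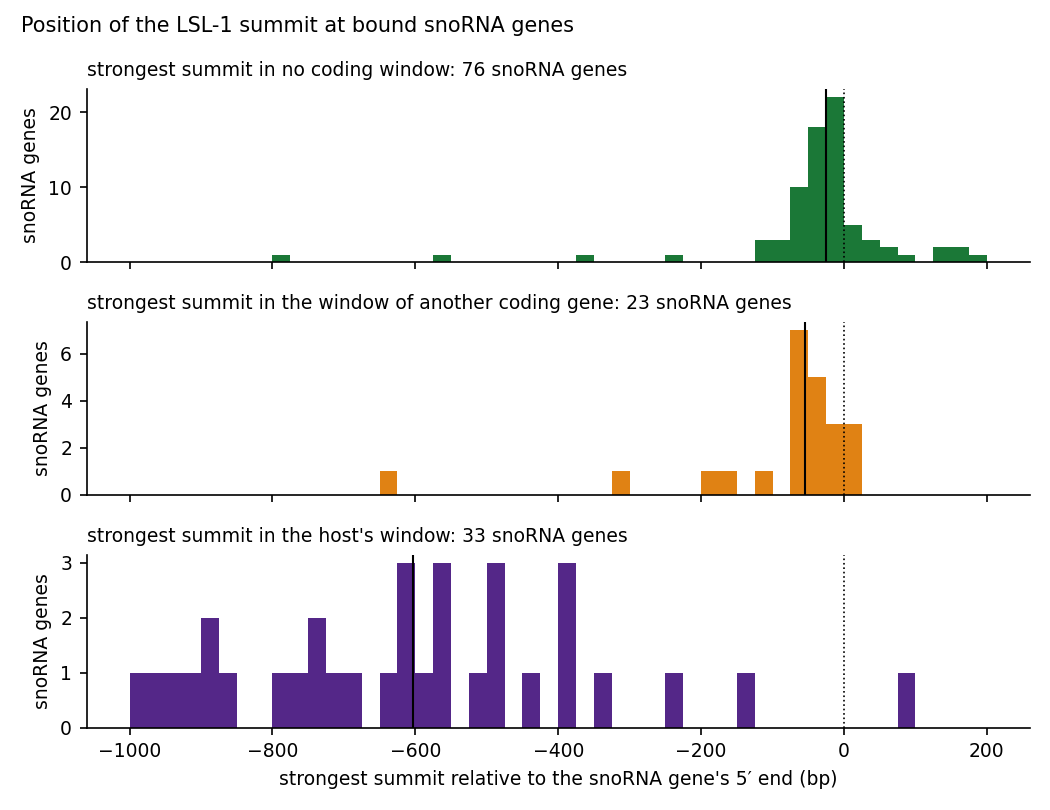
Number of bound snoRNA genes by the position of the strongest summit relative to the snoRNA 5′ end in bp (bins of 25 bp), in 1 panel for each class of summit; solid lines are medians and dotted lines the 5′ end. Summits in no coding window and in the windows of other coding genes gather just upstream of the 5′ end, while those at host promoters spread from -995 to 91 bp.

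The highest-ranked peaks at snoRNA genes lay in the promoter windows of their hosts. K11H12.12 (chrIV:653902-654030) and K11H12.13 (chrIV:654229-654361) lie in rpl-15, whose promoter peak had rank 13 in the IDR list, rank 13 in replicate 1 and rank 17 in replicate 2. Its summit was at -899 bp of K11H12.12, at -568 bp of K11H12.13 and at -353 bp of rpl-15 itself, and the same summit is in the window of K11H12.8. This peak cannot be assigned to any of these genes by position alone.

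Further host promoter peaks followed down the list. F28D1.13 in rps-23 had a peak of rank 84 (81 and 94 in the replicates) at -677 bp, and a weaker summit at 194 bp. C06A1.9 lies in cdc-48.1, which encodes a AAA-type ATPase that unfolds ubiquitinated proteins, and its peak of rank 154 (155 in both replicates) has its summit at -500 bp. The strongest summit at D1007.20 in rpl-24.1, of rank 292 (300 and 282), was at -390 bp, and a weaker summit lay at -191 bp. D1007.20 is the only one of the 33 genes of this class that also carries the paired words. B0412.6 and B0412.7 in rps-29 share a peak of rank 305 (310 and 283), at -592 and -935 bp. The strongest summits at F28D1.13, D1007.20 and these rps-29 genes are also in the windows of dpm-3, rps-10 and snt-2, in that order. The summit at C06A1.9 is in the window of no coding gene other than cdc-48.1. Each of these peaks was near the same rank in both replicates.

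The host genes as a group had a higher bound share than other coding genes. A summit was in the promoter window of 69 of the 188 hosts (36.7%, 29.8 to 44.0), against 14% of the protein-coding genes that hold no snoRNA gene. Among hosts on the strand of the snoRNA the count was 62 of 156 (39.7%, 32.0 to 47.9), and among those on the other strand alone 7 of 32 (21.9%, 9.28 to 40.0). All 13 hosts with a ribosomal protein symbol (rpl or rps) were bound, a class in which 86.4% of all members and 83.8% of those holding no snoRNA gene were bound. Of 3 hosts that encode translation factors, eef-1G was bound, and eif-4A3 and iff-2 were not. The other hosts had 55 of 172 bound (32.0%, 25.1 to 39.5).

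The 33 genes with a host promoter summit have 26 hosts, of which 12 have a ribosomal protein symbol. The other 14 include, picked after their values were seen, ubl-1 (rank 627), which encodes a ubiquitin-like protein fused to a ribosomal protein, akir-1 (rank 484), rpn-8 (rank 2586), a proteasome lid subunit gene, tct-1 (rank 1927) and the nucleosome assembly gene nap-1 (rank 2815). The peaks of the 13 ribosomal protein hosts ranged from rank 13 at rpl-15 to rank 2573 at rpl-26. The thirteenth host of that kind, rps-4, had a peak of rank 1271, but its snoRNA gene Y43B11AR.7 starts 752 bp into the gene and was unbound.

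The snoRNA genes with a host promoter summit begin close to the start of the host, at a median of 320 bp from the host's 5′ end (quartiles 184 and 496, highest 1027). A snoRNA gene that starts more than 1000 bp into its host can share the host's summit only if that summit lies downstream of the host's 5′ end. Among the 34 same-strand genes whose summit is in no coding window the median distance was 3375 bp (843 to 16071), so the distance to the host's start separates the classes in part by construction. Among same-strand genes with a WormBase number below 200000, there were 18 that were unbound although the host was bound, and they start 752 to 3870 bp into it. Among those with a higher number there were 24, which start 619 to 16098 bp into it, so such genes also occur at distances at which others have the host's summit in their window.

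**Figure D3:**
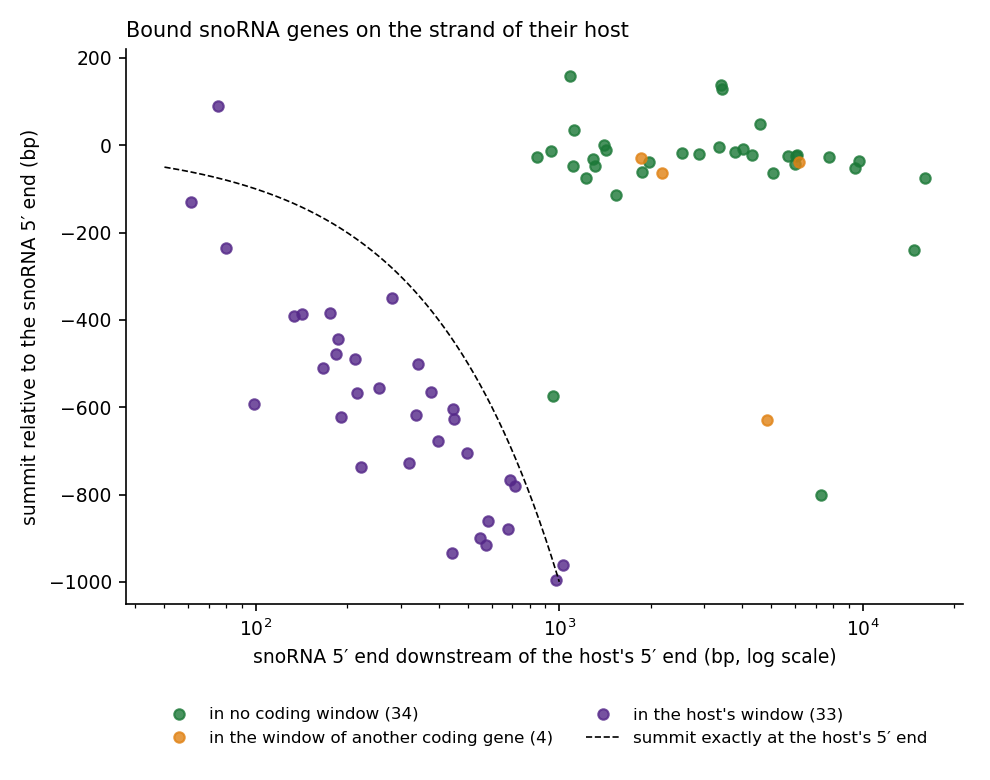
Position of the summit relative to the snoRNA 5′ end in bp against the distance of that end from the host's 5′ end in bp (log scale), for the 71 bound snoRNA genes on the strand of their host; colours give the class of the summit and the dashed line marks a summit exactly at the host's 5′ end. Host promoter summits mostly lie below the dashed line and follow it, while summits in no coding window mostly stay near 0 at distances from 843 to 16071 bp.

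Hosts with several snoRNA genes had members on both sides of the call. Of the 188 hosts, 164 hold 1 snoRNA gene, 21 hold 2, rpl-6 and top-2 hold 3 and nol-56 holds 4. In rpl-6 all 3 genes were bound. R151.11 and R151.12 start 166 and 572 bp into the gene and share its promoter peak of rank 340, and R151.13, at 953 bp, has a weaker peak of rank 3408 at -575 bp. That peak had rank 2840 in replicate 1 and rank 10396 in replicate 2. In top-2, which encodes a type II DNA topoisomerase, the promoter peak had rank 45, but K12D12.6, K12D12.7 and K12D12.8 start 1312 to 1483 bp into the gene and none was bound. nol-56 encodes a core protein of box C/D particles and had a promoter peak of rank 1875. Of its 4 snoRNA genes only K07C5.11, which starts 142 bp into the gene, had that peak in its window.

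Many snoRNA genes inside coding genes had a summit of their own while the host had none. Of 49 inside genes with a summit in no coding window, 11 had a bound host (22.4%, 11.8 to 36.6), against 44 of 130 unbound inside genes (33.8%, 25.8 to 42.7). With a WormBase number below 200000 the counts were 7 of 39 (17.9%, 7.5 to 33.5) against 19 of 33 (57.6%, 39.2 to 74.5). With a higher number they were 4 of 10 (40.0%, 12.2 to 73.8) against 25 of 97 (25.8%, 17.4 to 35.7), the other way round. On the strand of the host there were 34 such genes, of which 28 had an unbound host, and 24 of those 28 summits lay within 100 bp of the snoRNA 5′ end.

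The highest-ranked inside genes of this kind were as follows. T06D8.11 (chrII:11224182-11224258) lies in plpr-1, and its summit at -61 bp had rank 331 in the IDR list, 333 in replicate 1 and 336 in replicate 2. W06A7.12 (chrV:14832594-14832711) lies 14702 bp into ret-1, the reticulon gene, and had a peak of rank 459 (447 and 469) at -240 bp. Y37E3.20 (chrI:2085037-2085155) lies 6082 bp into pcyt-2.1 and had a peak of rank 539 (522 and 639) at -23 bp. The hosts of all 3 were unbound.

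Further genes of this kind, picked after their values were seen, lie deep inside long unbound hosts. C16D9.11 in rol-3 had a peak of rank 674 (682 and 663) at -51 bp, and ZK994.7 in pxn-1 a peak of rank 715 (659 and 926) at -25 bp. W04D2.7 in inx-11, a gap junction innexin gene, had one of rank 1201 (1205 and 1218) at -8 bp. T19C4.11 in gpa-1, a G protein alpha subunit gene, had one of rank 1429 (1264 and 2413) at -39 bp. K11C4.6 in unc-70, the beta spectrin gene, had one of rank 2247 (2493 and 1983) at -27 bp. In each case the summit lay at most 51 bp from the snoRNA 5′ end, which is 1971 to 9440 bp into the host.

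All 15 bound snoRNA genes on the strand opposite to their host had a summit in no coding window, at a median of -15 bp (-90 to 152). The strongest was C05H8.3 (chrIII:5653866-5653968), with a peak of rank 475 (470 and 506) at -40 bp in ckk-1. Y55F3BR.9 (chrIV:867056-867133) followed, with a peak of rank 613 (586 and 652) at 23 bp in Y55F3BR.2, and it is one of the box C/D genes printed above. Of the 15 hosts 5 were bound themselves. That none was at a host promoter follows in part from the geometry, since the window of such a gene runs towards the other end of the host.

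Outside coding genes the summits were close to the snoRNA 5′ end, at a median of -44 bp (quartiles -58.8 and -16.5), and 38 of 46 bound genes had their strongest summit within 100 bp. The highest-ranked was Y23H5B.10 (chrI:2514168-2514311), with a peak of rank 339 (322 and 393) at -49 bp. T26A8.6 (chrIV:8428614-8428739) had a peak of rank 514 (543 and 434) at -28 bp, and W03C9.9 (chrII:11960898-11960959) a peak of rank 564 (566 and 569) at -54 bp. Y74C9A.6 (chrI:3747-3909), close to the end of its chromosome, had a peak of rank 596 (548 and 773) at -16 bp. K07C10.2 (chrII:11167217-11167303) had a peak of rank 798 (769 and 952) at 93 bp, just past the 3′ end of the gene. None of these 5 summits is in a coding promoter window.

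The other strong outside peaks stand in the windows of coding genes as well. F59C6.15 had a peak of rank 387 (357 and 492) at -57 bp, also in the window of F59C6.18. M03D4.78 had a peak of rank 555 (519 and 647) at -75 bp, also in the window of zen-4, which encodes a kinesin needed for cytokinesis. Y53F4B.47 had a peak of rank 609 (612 and 611) at -49 bp, shared with cmtr-1, and Y75B12B.12 a peak of rank 697 (685 and 791) at 11 bp, shared with Y75B12B.11. In all, 19 of the 46 bound outside genes (41.3%, 27.0 to 56.8) share their summit with a coding gene in this way.

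The bound share was higher among snoRNA genes with the words shown above than among those with neither. In the stretch from 100 bp upstream to 20 bp past the 5′ end, on the sense strand, 27 snoRNA genes held both GNAACC and TGTCNG (7.80%), against 33 of 129 snRNA genes (25.6%), 7 of 612 tRNA genes (1.14%) and 88 of 19973 protein-coding genes (0.441%). GTTCNANNC without the pair was held by 38 snoRNA genes (10.98%), and the word, with or without the pair, was present in 1.79% of protein-coding stretches, 9.30% of snRNA stretches and 0.817% of those upstream of tRNA genes, whose B box lies inside the gene. The remaining 281 snoRNA genes held neither. The words were chosen after the sequences at bound genes had been seen. The higher bound share can therefore follow in part from that choice, and no test was made. The chromosome left out of the stretches printed above is I. Its bound genes D1007.20 (rank 292), F59C6.15 (rank 387), Y37E3.20 (rank 539) and Y74C9A.6 (rank 596) have the pair, and Y23H5B.10 (rank 339) has the B box word.

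The words mostly stood at fixed places. GNAACC stood exactly 13 bases before TGTCNG in 23 of the 27 snoRNA genes with both (85.2%, 66.3 to 95.8), in 28 of the 33 snRNA genes with both, and in 4 of the 88 protein-coding genes with both. TGTCNG started at a median of -49 bp (-74 to -43), and GTTCNANNC at a median of -14 bp (-68 to -5). TGGNNNA stood 20 to 70 bases before GTTCNANNC in 26 of the 38 snoRNA genes with that word but not the pair (68.4%, 51.3 to 82.5), against 35 of 355 such protein-coding genes (9.86%, 6.96 to 13.4).

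Of the genes with the paired words 22 of 27 were bound (81.5%, 61.9 to 93.7), and of those with the B box word 27 of 38 (71.1%, 54.1 to 84.6). Of genes with neither, 83 of 281 were bound (29.5%, 24.3 to 35.2). These shares depend on the age of the gene record, told by WormBase numbers below or above 200000 and described further on. Among earlier records 17 of 18 genes with the pair (94.4%, 72.7 to 99.9), 27 of 32 with the B box word (84.4%, 67.2 to 94.7) and 58 of 91 with neither (63.7%, 53.0 to 73.6) were bound. Among later records the counts were 5 of 9 with the pair (55.6%, 21.2 to 86.3), 0 of 6 with the B box word (up to 45.9%) and 25 of 190 with neither (13.2%, 8.70 to 18.8). The gap between the B box word and neither was thus smaller among earlier records than over all, and the order was the other way among the few later ones. With both the A and the B box word 22 of 26 were bound (84.6%, 65.1 to 95.6), and with the B box word alone 5 of 12. A summit within 100 bp of the 5′ end was present at 18 of 27, 27 of 38 and 39 of 281 genes with the pair, with the B box word and with neither. Among earlier records the counts were 15 of 18, 27 of 32 and 29 of 91, and among later ones 3 of 9, 0 of 6 and 10 of 190. Peaks in no coding window held most of these genes: 16 of the 76 had the pair and 22 had the B box word, while the host promoter class of 33 had 1 and 0. The other 38 of the 76 had neither.

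**Figure D4:**
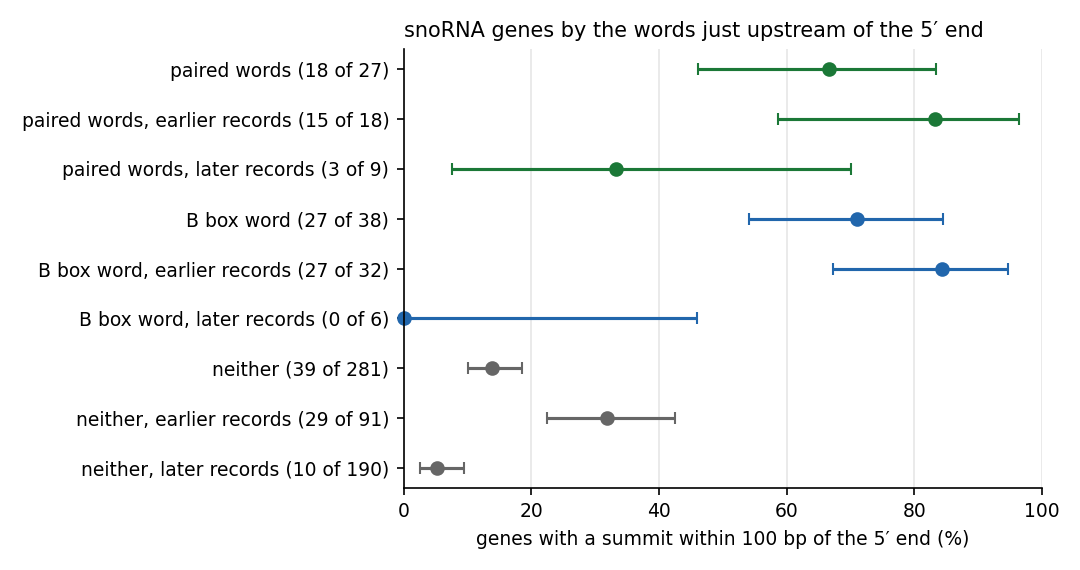
Percent of snoRNA genes with an IDR summit within 100 bp of the 5′ end, by the words in the stretch reaching 100 bp upstream and 20 bp past that end and by age of the gene record; points are shares and bars exact 95% intervals. Over all records the share is 66.7% with the paired words, 71.1% with the B box word and 13.9% with neither. Among earlier records it is 83.3%, 84.4% and 31.9%, and among later ones 33.3%, 0% and 5.26%.

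Words found under many LSL-1 peaks elsewhere were rare under snoRNA peaks. Within 50 bp of the summit, on either strand, ACAGTA occurred in 2 of the 124 snoRNA window peaks (1.61%, 0.196 to 5.70), against 970 of the 3773 other IDR peaks (25.7%, 24.3 to 27.1). ACTGTA occurred in 2 of 124 as well, against 24.9% of the others. The reverse complement of one of these words overlaps the other in part, so the counts are not separate. Peaks in coding promoter windows, 2269 in all, held ACAGTA in 18.0% of cases and ACTGTA in 17.4%.

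GC-rich words did not show such a gap. GGCGCA occurred in 29 of 124 snoRNA peaks (23.4%, 16.3 to 31.8), against 18.0% of the other IDR peaks, and ACGCGC in 17 of 124 (13.7%, 8.19 to 21.0), against 14.2%. By class GGCGCA was in 14 of 75 peaks in no coding window, 8 of 26 host promoter peaks and 7 of 23 peaks at other coding promoters. GTTCNANNC was in 26 of 124 snoRNA peaks (21.0%, 14.2 to 29.2), against 5.51% of the others, and TGTCNG in 37 of 124 (29.8%, 22.0 to 38.7), against 12.7%. Unlike the GC-rich words, GTTCNANNC and TGTCNG were chosen after sequences at bound snoRNA genes had been seen. Their higher shares in these same peaks can follow in part from that choice. Overlapping windows and chance matches are included in all these counts, and a match is a description of letters, not of a binding site.

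Annotated tRNA genes were rarely near these summits: 1 of the 132 strongest summits lay within 200 bp of one. The exact word GTTCGANNC occurred in the window or gene, on either strand, in 16.8% of snoRNA genes, against 77.9% of tRNA genes, and in the window of 7.57% of protein-coding genes.

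The age of the gene record divided the members more sharply than their place. WormBase gives new genes rising numbers, and the snoRNA genes split into 141 with a number below 200000 and 205 above it, with none between 197666 and 206375. This split was made after the data had been seen. Of the earlier records 102 of 141 were bound (72.3%, 64.2 to 79.5), and of the later ones 30 of 205 (14.6%, 10.1 to 20.2). The gap was present inside coding genes, at 72 of 105 and 14 of 111, and outside them, at 30 of 36 and 16 of 94. The later share was near the 14.2% of protein-coding genes and above the 4.29% of other noncoding genes. By place it was 12.6% inside (7.07 to 20.3) and 17.0% outside coding genes (10.1 to 26.2), against 4.64% and 4.08% of other noncoding genes.

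Earlier and later records differed in other ways. Summits within 100 bp of the 5′ end were present at 30 of the 36 earlier outside genes and at 8 of the 94 later ones. The paired words or the B box word were held by 50 of 141 earlier genes and by 15 of 205 later ones. Inside coding genes 100 of 105 earlier records lay wholly in an intron of the host, against 72 of 111 later ones, and the rest overlapped an exon. Earlier genes had a median length of 118 bp and later ones of 142 bp. The part of these features in the difference in bound share was not tested.

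Box words inside the gene went with the earlier records. TGATGA in the first 25 bases together with CTGA in the last 25 was found in 15 genes, all of them earlier records, of which 11 were bound (73.3%, 44.9 to 92.2). ACA at 2 to 4 bases from the 3′ end was found in 75 genes, of which 44 were bound (58.7%, 46.7 to 69.9). Among earlier records alone the bound share with ACA was 41 of 56, close to the 102 of 141 of all earlier records. Both patterns are strict, so genes without a match are not thereby of another kind.

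Many unbound members had a region of the pooled list in the window. That list holds background as well as peaks, so such a region need not mark binding. Of 214 unbound genes 109 had a lower-ranked region of the pooled list in the window, at a median rank of 11750 (3907 to 29793). That is 50.9% (44.0 to 57.8), against 26.3% of protein-coding genes and 15.5% of other noncoding genes without an IDR summit in the window. The share was 61.5% of unbound genes inside coding genes, against 19.1% of other noncoding genes there, and 34.5% outside, against 13.3%. The strongest of these were at F25H5.9 in pyk-1, a pyruvate kinase gene (rank 3907), K09H9.11 in vbh-1 (rank 3925) and F07A11.15 in din-1 (rank 4078), just past the last IDR rank of 3897. The weakest bound member was F46F11.12 in trpp-8, with rank 3824 (4219 and 3474 in the replicates). At the edges of the window F17C11.15 in eef-1G was bound with a summit at -995 bp, and F48A11.7 in ubxn-3 unbound with one at -1025 bp. Downstream, C17H12.36 was bound with a summit at 196 bp, and C26C6.13 unbound with one at 236 bp.

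On the autosomes the bound share ranged from 36.6% (26 of 71 genes, chromosome II) to 50.8% (30 of 59, chromosome IV). On X it was 2 of 33 (6.06%, 0.743 to 20.2), and none of the 10 X genes inside coding genes was bound. Low shares on X were not particular to snoRNA genes: 1.03% of protein-coding, 2.85% of other noncoding and 16.7% of tRNA genes on X were bound, against 16.3%, 4.49% and 62.8% on the autosomes. Of the 33 X genes 30 are later records. The X genes bound were C53B7.8 (rank 2413, 2221 and 3989 in the replicates, summit at -2 bp), which carries the B box word, and Y73B3A.30 (rank 2761, summit at -167 bp). Y73B3A.30 had rank 3440 in replicate 2 and no region within 100 bp in replicate 1, and 63.6% of the 36-base words around its summit occur more than once in the genome.

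Most genes for the proteins of snoRNA particles held a summit in their promoter windows. Of 11 genes for core and assembly proteins, 10 held a summit (90.9%, 58.7 to 99.8), against 14.2% of all protein-coding genes. fib-1, which encodes fibrillarin, the methylase of box C/D particles, had a peak of rank 536 (536 and 577) at -66 bp. dkc-1, which encodes the pseudouridine synthase of box H/ACA particles, had a peak of rank 783 (793 and 766) at -255 bp. The other core proteins of the box C/D particle had peaks of rank 1875 (nol-56), 1408 (nol-58) and 1222 (snu-13). Those of the box H/ACA particle had rank 1529 (garr-1), 804 (Y48A6B.3) and 2901 (nola-3). The ATPases ruvb-1 and ruvb-2, which help assemble the particles, had rank 1469 and 1378. tgs-1, whose product hypermethylates the cap of small RNAs, held no summit. Whether these summits also lie in the windows of other coding genes was not examined, so position alone does not assign them.

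Of 31 further genes of ribosome biogenesis 18 held a summit (58.1%, 39.1 to 75.5), against 14.2% of all protein-coding genes. Sharing of these summits with the windows of other coding genes was not examined either. The highest-ranked were rpoa-2 (rank 157, summit at -670 bp) and rpoa-1 (rank 494, at -981 bp), which encode the large subunits of RNA polymerase I. wdr-46 had rank 560, nog-1 633, nol-10 761 and nol-6 957. The others ranged from exos-3 at rank 1318 to nst-1 at rank 3772, with exos-4.1, lpd-7, exos-8, utp-20, nol-14, pro-3, pro-1, exos-9, lpd-6 and nucl-1 between them. nucl-1 had rank 3126 in replicate 1 and rank 13353 in replicate 2, and pro-1 had no region within 100 bp in replicate 2. Of all these genes only utp-20 and nol-56 also hold snoRNA genes.

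Most snoRNA peaks were in the top lists of both replicates. Of the 124 distinct peaks 110 (88.7%, 81.8 to 93.7) were matched, summit to summit within 100 bp, by one of the 3897 strongest regions in each replicate, against 79.1% of all IDR peaks (77.8 to 80.4). The shares were 67 of 75 for peaks in no coding window, 23 of 26 for host promoter peaks and 20 of 23 for the rest. The 14 peaks not in both top lists all had ranks from 2413 on. By rank quartile of the IDR list the 124 peaks numbered 42, 48, 23 and 11 from strongest to weakest, and the 26 host promoter peaks 15, 4, 6 and 1. IDR peaks were chosen for agreement between the same replicates, so these shares describe them and are no independent test.

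**Figure D5:**
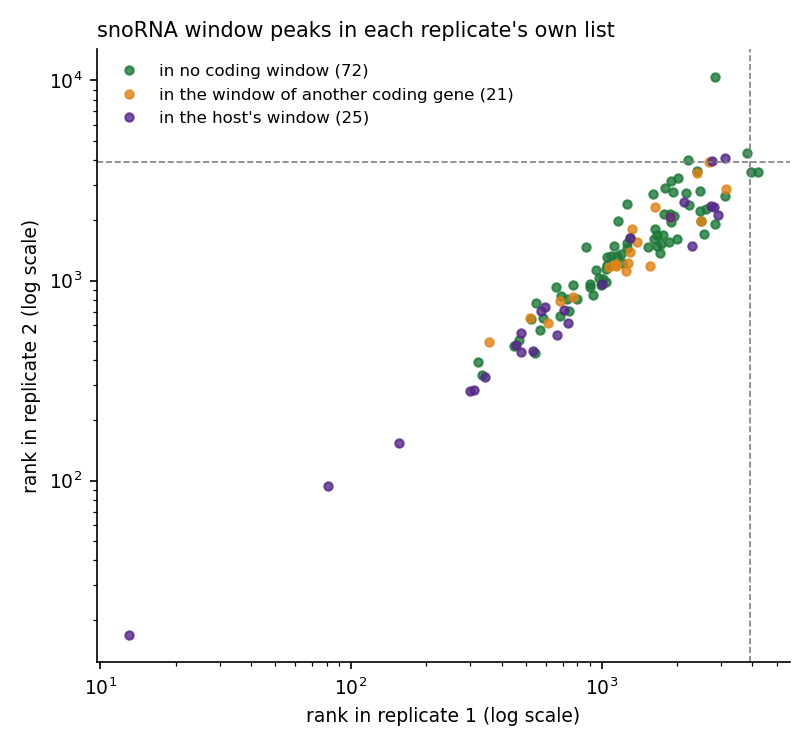
Rank of each snoRNA window peak in the list of replicate 2 against its rank in replicate 1 (log scales, 1 strongest), coloured by class of summit, for the 118 peaks with a region within 100 bp in both full lists. Dashed lines mark rank 3897, and all but a few of the points lie below both.

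Sequence copies touched few of these values. No snoRNA gene had a copy of identical sequence among the members, and 9 of the 124 peaks held any 36-base word within 50 bp of the summit that recurs in the genome. In 2 of them, of ranks 2761 and 3691, more than 50% of the words recurred.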

How the data were processed

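ChIP-seq peak lists of 2 biological replicates (1 group) were analysed. Per the notes deposited with the samples, the authors called regions per replicate and on the pooled data on assembly ce11 (WBcel235), against a control library not analysed here. The sources used here name no caller, aligner, IDR threshold or read depth. The deposited signal value of each region is on the caller's own scale and served only for ranking within each list. No comparison used the deposited −log10 q-value. The deposited summit offset gave each position.

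Genes came from Ensembl release 115 and sequence from RefSeq, both of WBcel235. The host is the smallest coding gene holding the whole snoRNA gene, on the same strand where there is one. Of the 346 snoRNA genes 345 had the same symbol in RefSeq. Other noncoding genes here are all genes of neither the protein-coding nor the snoRNA biotype. They include pseudogenes, tRNA genes and snRNA genes. Shares have exact Clopper-Pearson intervals, and with 1 group no groups were tested against each other. A replicate holds a peak if one of its top 3897 regions has a summit within 100 bp. The members, gene lists and words were chosen with earlier results of these data known, and the paired, A box and B box words, their spacings and the split by gene record after seeing these values.

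The genes named are the 8 inside and 8 outside snoRNA genes with the strongest peak, hosts of these and hosts of 3 or more snoRNA genes, the 5 inside and 5 outside genes with the strongest summit in no coding window, genes nearest the window's edges, the 3 unbound genes with the strongest pooled region, bound genes on X, all of the particle list and the bound ones of the biogenesis list (exos-10 had no match). Others are marked as picked after their values were seen. Alternatives were a stricter peak set, single replicates, region midpoints, other windows, summits near tRNA genes left out, summits merged, autosomes alone, genes with a pooled region, other definitions of inside, summits outside coding windows, and other matches. Window and overlap code was tested on simulated data. Software was Python 3.11.15 with pandas 2.3.3, numpy 2.4.6, matplotlib 3.10.9 and scipy 1.17.1.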

Additional observations from a re-analysis of the deposited data

How the results depend on the processing

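With the upper 50% of IDR peaks the bound shares were 28.3% of all snoRNA genes, 29.2% of inside and 26.9% of outside genes, and 26.1% of hosts. In a window of 500 bp upstream to 100 bp downstream 30.1% of all and 27.3% of inside genes were bound, 24.04% of the bound genes shared their summit with a coding window (42.4% otherwise), and the median inside summit was at -32 bp (-62 bp otherwise). In a window of 2000 bp upstream these values were 43.9%, 47.2%, 59.9% and -367.5 bp. The share of bound genes whose summit is also in a coding window, of a host or another gene, thus depends on the window. Among genes with any pooled region the shares were 54.8% of all, 51.8% of inside and 61.3% of outside genes, and 58.5% of hosts. Counting only genes whose strongest summit is outside coding windows, the class already described, the shares were 22.0%, 22.7% and 20.8% of all, inside and outside genes. Among earlier gene records, an alternative chosen after seeing the data, the shares were 72.3%, 68.6% and 83.3%, and 47.1% of hosts. Among later records they were 14.6%, 12.6% and 17.0%, and 28.8% of hosts, with the median outside summit at -82 bp. Peaks at snoRNA genes in both top lists were 81.5% at a match of 50 bp and 94.4% with lists of double length. Leaving out either replicate gave 37.0% to 38.7% of all, 37.04% to 40.7% of inside and 35.4% to 36.9% of outside genes, and 35.6% to 36.7% of hosts. With region midpoints, summits near tRNA genes left out, close summits merged, autosomes alone, another definition of inside or a match of 200 bp, each value stayed within the interval of the value reported. Apart from the alternatives' own construction, the causes of these differences were not tested. No paired analysis was possible because there is 1 group. The unknown depth limits what an unbound gene means: it held no peak of the list.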
